A study of Homo sapiens with 6 samples.

Results

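The CCR4-NOT complex is represented here by 10 subunit genes, CNOT1, CNOT2, CNOT3, CNOT6, CNOT6L, CNOT7, CNOT8, CNOT9, CNOT10 and CNOT11, of the 40173 genes in the count table. They were taken by gene symbol, and they hold 151 of the 151453 transcripts that carry a gene. RNA-seq was performed on HCT116, a human colorectal cancer cell line, with 3 libraries per group. The MOCK cells had received a control lentivirus, and the CYGB-overexpressing cells a lentivirus with the coding region of cytoglobin (CYGB, a haem protein that binds oxygen) fused with a FLAG tag. Both lines were stable after puromycin selection, and the cells were at passages 15 to 20. Whether the libraries of a group came from separate transductions is not given in the sources used here (the labels call them biological replicates), so p-values measure the spread between these libraries. The comparison asks which subunits differ between CYGB-overexpressing and MOCK cells. CNOT9 was among the 11 genes with an adjusted p under 0.05 in this same comparison and the set was chosen for it, so its values are given as a description without a test, and the other 9 subunits were tested.

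CCR4-NOT is the main cytoplasmic deadenylase of human cells, and it shortens the poly(A) tail of mRNAs, after which they are decapped or degraded. CNOT1 is the scaffold on which the other subunits assemble, and the complex carries a nuclease of the CAF1 type (CNOT7 or CNOT8) and a nuclease of the CCR4 type (CNOT6 or CNOT6L). CNOT9, also called CAF40 or RQCD1, is an armadillo-repeat protein that sits on the scaffold and docks proteins such as the TNRC6 partners of the microRNA machinery.

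The libraries held 58138393 to 66035266 counts, of which 18.6 to 19.5% lay on transcripts without a gene and were left out of the scaling. CYGB had 10, 28 and 34 counts in MOCK against 34935, 27681 and 32333 in CYGB, as labelled. The 6 epithelial markers EPCAM, KRT8, KRT18, KRT19, CDH1 and VIL1 summed to 4105 to 4583 CPM (counts scaled to library size) in MOCK and 4183 to 4464 CPM in CYGB, although VIL1 itself was low, at 12 to 40 counts. The 3 leukocyte markers summed to 19.4 to 21.3 CPM in MOCK and 9.94 to 25.2 CPM in CYGB, nearly all of it CD68. The 3 fibroblast markers summed to 44.5 to 50.2 CPM and 47.4 to 53.9 CPM, nearly all of it COL1A1, and the 2 endothelial markers to 1.01 to 1.38 CPM and 0.551 to 1.96 CPM. No marker was at 0 in all 6 libraries. Their part in the results was not tested.

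CNOT9 (ENSG00000144580) lies on the plus strand of chromosome 2 from 218568580 to 218597080 in GRCh38, and the table lists 7 transcripts of it. The 3 coding transcripts with most counts differ in their last exon and in 1 internal exon. ENST00000273064 has 8 exons and 4079 bases, encodes 299 residues and ends in a long 3′ untranslated region (UTR) of 2807 bases, stop codon included. Of 65110 coding transcripts in the table, with incomplete annotated ends not left out, 7.91% have a 3′ UTR at least as long. The median of these 65110 is 308 bases. ENST00000627282 has 9 exons and 1621 bases, shares the same last exon but ends 2554 bases earlier, and encodes 331 residues. ENST00000295701 has 8 exons and 1126 bases, uses an alternative last exon and encodes 258 residues.

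The coding parts of the alternative and the common last exon are shown because they set the coding end of ENST00000295701 apart from the end that ENST00000273064 and ENST00000627282 share. Each is given 5′ to 3′ on the plus strand of GRCh38 from the GENCODE 29 transcripts, with the exon in capitals and 15 flanking bases of the spliced mRNA in lower case. The coding part is 43 bases in the alternative last exon (chr2:218593528-218593570) and 166 bases in the common last exon (chr2:218594108-218594273), and both follow the same upstream exon. The extra internal exon of ENST00000627282 adds 32 residues and was in 1 of the 7 listed transcripts.
ENST00000295701, alternative last exon: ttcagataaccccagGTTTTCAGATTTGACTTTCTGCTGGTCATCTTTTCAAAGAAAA
ENST00000273064, common last exon: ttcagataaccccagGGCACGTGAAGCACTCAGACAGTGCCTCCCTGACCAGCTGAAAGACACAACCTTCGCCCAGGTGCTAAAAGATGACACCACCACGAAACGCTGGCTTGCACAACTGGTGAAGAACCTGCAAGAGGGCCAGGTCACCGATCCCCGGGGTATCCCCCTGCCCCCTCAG

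**Figure D1:**
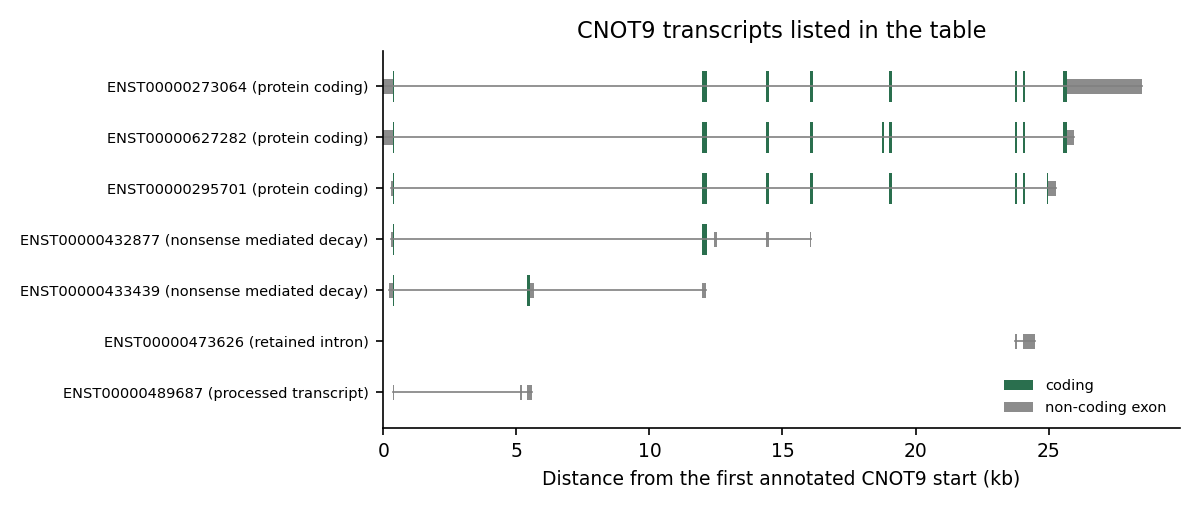
Exon maps of the 7 CNOT9 transcripts in the table, drawn to scale in kb from the first annotated start, with coding parts in green and other exon parts in grey. ENST00000273064 carries the long grey end at the right, ENST00000627282 the extra exon, and ENST00000295701 ends in an alternative last exon.

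Summed over its transcripts, CNOT9 had 1686, 1696 and 1587 counts in MOCK against 4095, 3684 and 4063 in CYGB. Every CYGB library was above every MOCK library, and the spread within each group was small. On the CPM scale the means were 32.9 ± 2.52 for MOCK and 77.0 ± 4.29 for CYGB (SD, n = 3), a ratio of 2.34 and a log2 fold change of 1.23 (standard error 0.10 in the fit over all genes). These are the values that chose the gene. With each library left out in turn the log2 fold change ran from 1.18 to 1.29.

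The counts of the 3 coding transcripts did not move together. ENST00000273064, the transcript with the long 3′ UTR, had 451, 271 and 755 counts in MOCK against 3707, 3310 and 3809 in CYGB. It averaged 9.78 ± 4.77 CPM in MOCK against 70.3 ± 4.53 CPM in CYGB (SD, n = 3), a ratio of 7.19. ENST00000295701, with the alternative last exon, had 636, 744 and 374 counts in MOCK against 356, 233 and 152 in CYGB. It was lower in CYGB with no overlap in CPM, though narrowly, by 7.27 in MOCK replicate 3 against 7.05 in CYGB replicate 1. ENST00000627282, with the extra exon, had 577, 654 and 423 counts in MOCK against 0, 103 and 60 in CYGB, likewise without overlap. Over all transcripts tested, 5.56% were lower in CYGB without overlap. The 0 of 4095 CNOT9 counts in CYGB replicate 1 allows a share of up to 0.0733%, for counting error only.

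The remaining transcripts were low in both groups. ENST00000433439, annotated for nonsense-mediated decay, had 7, 23 and 18 counts in MOCK against 8, 16 and 20 in CYGB. ENST00000489687, a processed transcript without a coding region, had 11, 0 and 12 counts in MOCK against 20, 18 and 18 in CYGB. The other 2 had at most 4 counts in any library. Without ENST00000273064, the CNOT9 counts were 1235, 1425 and 832 in MOCK and 388, 374 and 254 in CYGB, a log2 ratio of -1.80, so the higher CNOT9 total was held by a single transcript while the rest of the gene had fewer counts.

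As a share of all CNOT9 counts, ENST00000273064 made up 26.7, 16.0 and 47.6% in MOCK replicates 1 to 3, against 90.5, 89.8 and 93.7% in CYGB replicates 1 to 3. The mean share was 30.1 ± 16.1% in MOCK and 91.4 ± 2.08% in CYGB (SD, n = 3). MOCK replicate 3 stood nearest to the CYGB libraries and was the only MOCK library in which this transcript led. In MOCK replicates 1 and 2 the leading transcript was ENST00000295701, whose mean share was 35.1 ± 10.4% in MOCK and 6.25 ± 2.48% in CYGB. The mean share of ENST00000627282 was 33.1 ± 6.03% in MOCK and 1.42 ± 1.40% in CYGB.

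Long transcripts collect more reads per molecule, so the same counts were divided by transcript length and scaled to TPM (length-scaled counts, computed here over annotated transcripts). Per length, CNOT9 stood at 43.8, 43.3 and 32.6 TPM in MOCK against 51.3, 46.8 and 44.1 in CYGB. The groups were separated only narrowly, by 43.8 against 44.1 TPM. The means were 39.9 ± 6.28 TPM in MOCK and 47.4 ± 3.65 TPM in CYGB (SD, n = 3), a ratio of 1.19 against 2.34 in CPM. The log2 ratio of the TPM means was 0.25, and 0.23 when 200 bases were taken off each length. The mean length of the CNOT9 transcripts, weighted by TPM, was 1550, 1440 and 1840 bases in MOCK against 3110, 3120 and 3360 bases in CYGB. ENST00000273064 made up 12.4 ± 8.18% of CNOT9 TPM in MOCK and 71.7 ± 4.74% in CYGB (SD, n = 3).

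**Figure D2:**
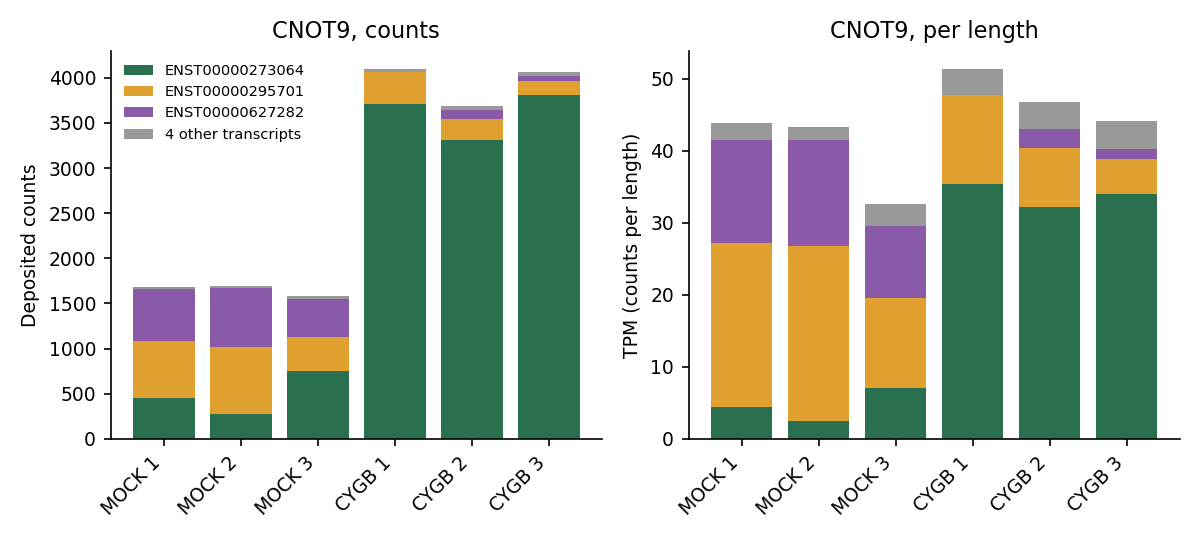
CNOT9 in each of the 6 libraries as stacked bars, with deposited counts on the left and TPM on the right, coloured by transcript. The left bars are 2.34 times higher in CYGB after scaling to CPM, the right bars 1.19 times, and green (ENST00000273064) fills most of each CYGB bar.

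How reads were divided among isoforms by the counting is not given in the sources used here. The share of 150-base windows, the length of a read, that no other transcript of the gene holds was 65.0% for ENST00000273064 (2554 of 3930 windows), 32.0% for ENST00000295701 and 16.6% for ENST00000627282. A large part of the long transcript can therefore be told apart by sequence, mainly in the 2554 bases of its last exon that the other listed transcripts lack. These windows were compared only within CNOT9, and whole windows were not searched in other genes. Stretches of 30 bases of the extra exon of ENST00000627282 were in 1470 of 151345 transcripts of other genes, on the same strand. On the opposite strand they were in 1532, and the library kit does not mark the strand. For the 2554 bases it was 140 transcripts on the same strand, and for the alternative last exon 0. The opposite strand was not searched for these. The 16.6% of ENST00000627282 rests on windows over its extra exon. Of the 21225 transcripts without a gene, 332 were lower in CYGB by 0.5 to 1.5 times the CNOT9 gain of 44.1 CPM. The groups did not overlap for 49 of these. Of all tested transcripts with a gene, 5.56% were lower in CYGB without overlap, but the 332 were already picked for a lower mean in CYGB. How many were higher by as much was not counted, so the 332 and the 49 have no like measure of ordinary spread beside them. The table gives transcripts without a gene no position, and whether any of the 332 holds CNOT9 sequence was not tested. Both limits of this window were chosen after the data were seen.

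Motifs in the CNOT9 ends were searched as letters on the transcript strand. The polyadenylation hexamer AATAAA was in the last 50 bases of ENST00000295701 (1 match) and not in those of ENST00000273064 or ENST00000627282. It was in those of 38.1% of 65110 coding transcripts, with incomplete annotated ends not left out. The 2554 bases unique to ENST00000273064 held 0 copies of the AU-rich pentamer ATTTA, for which the median over 5956 coding transcripts with an end as long was 6 copies and 96.4% held at least 1. They also held no TGTANATA, the letters bound by Pumilio proteins, which 41.3% of those transcripts held. That 1 match of AATAAA was the only one found in the CNOT9 ends, so no overlap between motifs could occur.

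Neither neighbour of CNOT9 passed the test. USP37, a deubiquitinase gene that starts on the opposite strand 218 bases away, had 522, 691 and 543 counts in MOCK against 738, 633 and 607 in CYGB (log2 fold change 0.16, adjusted p = 0.963 with the quasi-likelihood test of edgeR, adjusted by Benjamini-Hochberg). PLCD4, a phospholipase gene 10684 bases downstream, had 150, 177 and 313 counts in MOCK against 315, 248 and 277 in CYGB (log2 fold change 0.38, adjusted p = 0.963). The small nuclear RNA pseudogene RNU6-136P lies within CNOT9 and has no row in the table.

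None of the other 9 subunits was called between CYGB-overexpressing and MOCK cells. The threshold of p and ratio was an unadjusted p of 0.01 or lower together with a 2-fold rise or a fall to 0.5 times. It was passed by 0 of 9, where 0.565% of the 19987 genes tested passed. After adjustment, 0 of 9 reached a p under 0.05 by edgeR's quasi-likelihood test, where 0.055% of all genes did. By DESeq2, which gave no p for CNOT6L, it was 0 of 8, where 108 of the 19987 genes did. An unadjusted p under 0.05 was reached by 1 of 9 with edgeR and 1 of 8 with DESeq2, CNOT2 in both. Over all genes this was 4.54% with edgeR and 1227 of 19987 with DESeq2. With edgeR the adjusted p-values ran from 0.963 to 1.000. In CPM, 0 of 9 had groups that did not overlap, where 5.72% of all genes were higher and 5.31% lower in CYGB without overlap. The log2 fold change was above 0 for 5 and below 0 for 4, with a median of 0.0072 against -0.0070 over all genes, and a median size of 0.088 against 0.18. In bulk RNA, fewer cells with a transcript and less of it per cell cannot be told apart.

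Per length, the order of the subunits in MOCK was led by the scaffold CNOT1 (111 ± 5.93 TPM), followed by CNOT11 (83.2 ± 4.96 TPM). These did not overlap with each other or with any other subunit. CNOT2, CNOT10, CNOT8, CNOT3 and CNOT9 came next, between 55.2 and 39.9 TPM on average, and each overlapped with its neighbour in the order. CNOT6 (29.3 ± 3.32 TPM), CNOT7 (19.6 ± 0.935 TPM) and CNOT6L (1.11 ± 0.954 TPM) followed without overlap, although CNOT9 and CNOT6 came close, with nearest libraries at 32.6 and 32.0 TPM. In CYGB the first were again CNOT1 (116 ± 15.7 TPM) and CNOT11 (80.5 TPM, from 68.8 to 90.7). CNOT8, CNOT10, CNOT9, CNOT2, CNOT3 and CNOT6 followed, between 60.3 and 35.2 TPM on average, each overlapping with the next. CNOT9 was thus the seventh of the 10 in MOCK and the fifth in CYGB. Its libraries overlapped with those of CNOT8 and CNOT3 in MOCK, and with those of CNOT10, CNOT2 and CNOT3 in CYGB. They did not overlap with those of CNOT2 and CNOT10 in MOCK, or with those of CNOT8 and CNOT6 in CYGB.

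**Figure D3:**
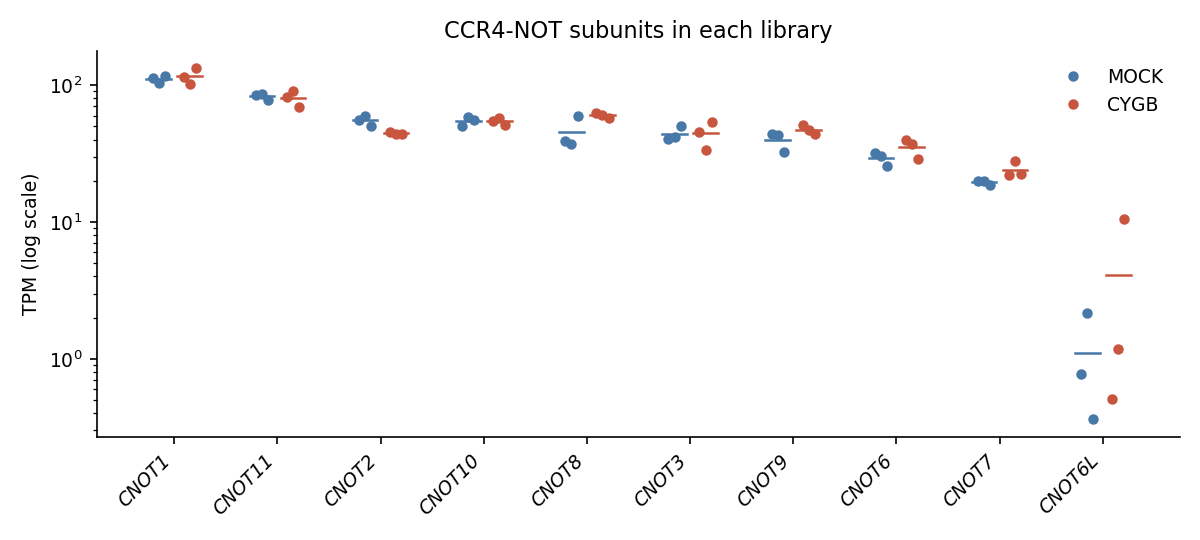
TPM of the 10 subunits on a log axis, with 1 point per library, blue for MOCK and red for CYGB, and bars at the group means. CNOT1 leads at 102 to 133 TPM, most subunits lie between 18.5 and 90.7 TPM, and CNOT6L is lowest, with CYGB replicate 3 alone at 10.6 TPM.

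CNOT1 (ENSG00000125107, chromosome 16 from 58519951 to 58629886), the scaffold, had 16239, 17421 and 18319 counts in MOCK against 16314, 15000 and 21873 in CYGB. The groups overlapped, with CYGB replicate 3 the highest and CYGB replicate 2 the lowest library. It averaged 343 ± 13.1 CPM in MOCK against 345 ± 63.5 CPM in CYGB (SD, n = 3), with a log2 fold change of 0.0072 (standard error, SE, 0.14). CNOT2 and CNOT3 form the NOT module that binds near the end of the scaffold. CNOT2 (ENSG00000111596, chromosome 12 from 70242994 to 70354993) had 3392, 4145 and 2676 counts in MOCK against 2272, 2297 and 2797 in CYGB. It was the subunit with the unadjusted p under 0.05, and its groups overlapped in CPM through MOCK replicate 3 and CYGB replicate 3. The means were 67.4 ± 13.8 CPM and 47.8 ± 4.72 CPM (log2 fold change -0.50, SE 0.18, unadjusted p = 0.0298, adjusted p = 0.963 by edgeR's quasi-likelihood test), and without single libraries the log2 fold change ran from -0.65 to -0.37. In TPM its libraries stood at 55.4, 59.9 and 50.5 in MOCK and 45.3, 44.3 and 44.3 in CYGB, without overlap, and limma on log2(TPM + 0.5) gave a difference of -0.30 (adjusted p = 0.913). CNOT3 (ENSG00000088038, chromosome 19 from 54137717 to 54155708) had 3305, 3170 and 3821 counts in MOCK against 3325, 2429 and 4159 in CYGB. The log2 fold change of CNOT3 was -0.083 (standard error 0.20), and both the lowest and the highest library belonged to CYGB.

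The CAF1-type nucleases CNOT7 and CNOT8 are close paralogs that take the same place in the complex. CNOT7 (ENSG00000198791, chromosome 8) had 2159, 2403 and 2503 counts in MOCK against 2607, 2570 and 1966 in CYGB, with a log2 fold change of -0.0021 (standard error 0.15). Its TPM values were 20.1, 20.1 and 18.5 in MOCK and 22.0, 27.8 and 22.5 in CYGB, without overlap, with a limma difference of 0.29 on log2(TPM + 0.5) (adjusted p = 0.913). CNOT7 and CNOT2 were thus the 2 of the 9 subunits whose groups did not overlap in TPM, where 6.63% of all genes were higher and 4.41% lower in that way. CNOT8 (ENSG00000155508, chromosome 5 from 154857553 to 154876793) had 1839, 2009 and 3831 counts in MOCK against 3651, 3524 and 3643 in CYGB. MOCK replicate 3 was at the CYGB level, and the other MOCK libraries had about 0.5 times that. The fitted log2 fold change was 0.48 (SE 0.28, adjusted p = 0.963) and 0.87 without MOCK replicate 3. CNOT7 made up 30.9 ± 6.33% of the summed TPM of both paralogs in MOCK and 28.5 ± 2.68% in CYGB (SD, n = 3). The difference of -2.43 percentage points gave p = 0.6 in a two-sided exact permutation test over the 6 libraries (0.7 adjusted over the 2 paralog pairs), a test that cannot go below 0.1 here.

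The CCR4-type nucleases CNOT6 and CNOT6L differed widely in level. CNOT6 (ENSG00000113300, chromosome 5 from 180494412 to 180578405) had 4852, 4995 and 3988 counts in MOCK against 6212, 5629 and 4757 in CYGB, with overlapping groups and a fitted log2 fold change of 0.24 (SE 0.16, adjusted p = 0.963). CNOT6L (ENSG00000138767, chromosome 4 from 77713387 to 77819615) had 49, 107 and 13 counts in MOCK against 57, 48 and 2340 in CYGB. A single library, CYGB replicate 3, stood far above the others. For CNOT6L the fit gave a log2 fold change of 3.81 (SE 1.73, adjusted p = 0.963) and -0.093 without that library. Of its 2340 counts, 2303 lay on ENST00000504123, a transcript of 8865 bases that had 20, 2 and 0 counts in MOCK against 48 and 0 in the other CYGB libraries. CNOT6 made up 96.5 ± 2.85% of the TPM of the pair in MOCK and 89.6 ± 14.3% in CYGB (SD, n = 3), a difference of -6.92 percentage points (exact permutation p = 0.7, 0.7 adjusted over the 2 pairs) that was 1.33 without CYGB replicate 3.

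CNOT10 and CNOT11 form a module at the start of the scaffold, and they had the smallest standard errors (SE) of the 9. CNOT10 (ENSG00000182973, chromosome 3 from 32685145 to 32773875) had 2655, 3217 and 3058 counts in MOCK against 2834, 3292 and 3216 in CYGB (log2 fold change 0.045, SE 0.095, adjusted p = 0.985). CNOT11 (ENSG00000158435, chromosome 2 from 101252802 to 101270316) had 5363, 6050 and 5160 counts in MOCK against 5305, 5728 and 4792 in CYGB (log2 fold change -0.088, SE 0.11, adjusted p = 0.964). Several subunit genes overlap another gene in the annotation, among them CNOT1 with SETD6, CNOT3 with LENG1, CNOT7 with VPS37A, CNOT8 with FAXDC2, CNOT10 with CNOT10-AS1 and CNOT11 with TBC1D8. The library kit does not mark the strand, so reads in the shared stretches cannot be told apart.

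**Figure D4:**
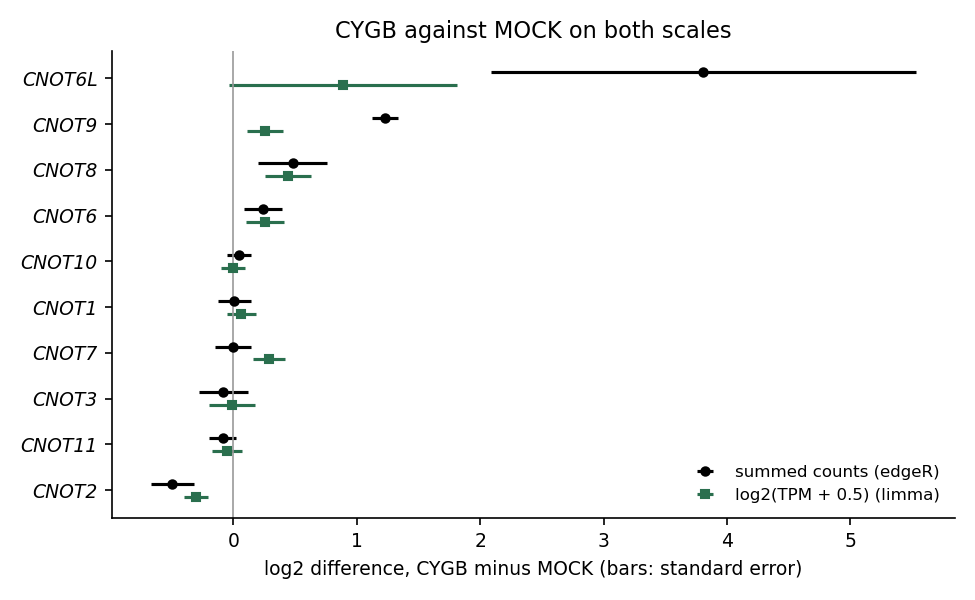
Difference between CYGB and MOCK on the log2 scale for each subunit, from summed counts (black circles) and from log2(TPM + 0.5) (green squares), with standard errors as bars. CNOT9 moves from 1.23 to 0.26 between the scales, CNOT6L has the widest bar, and 8 of the 10 lie within 0.5 of 0 on both scales.

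Single transcripts of the other 9 subunits were then examined in the fit over all 66609 transcripts tested. Of their 69 tested transcripts, 0 passed the threshold of p and ratio (1.02% of all transcripts did). After adjustment 0 reached a p under 0.05 by edgeR's quasi-likelihood test (0.015% of all). By DESeq2, which gave a p for 67 of them, it was also 0, where 748 of the 66609 transcripts did. An unadjusted p under 0.05 was reached by 3 with edgeR, against 3.78% of all transcripts. With DESeq2 it was reached by 6 of the 67, against 3760 of the 66609 transcripts. Groups did not overlap for 7, or 10.1%, with 3 higher and 4 lower in CYGB, where 4.99% of all transcripts were higher and 5.56% lower in that way. CNOT3 held 4 of these 7. Its coding transcript ENST00000221232 had 81, 866 and 839 counts in MOCK against 958, 1030 and 1108 in CYGB (adjusted p = 1.000). Its coding transcript ENST00000617930 had 821, 476 and 1016 counts in MOCK against 403, 137 and 426 in CYGB (adjusted p = 1.000), and a retained-intron transcript, ENST00000618939, had 801, 195 and 188 counts in MOCK against 43, 99 and 138 in CYGB. These and the transcripts that follow were chosen after their values were seen.

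The transcript that led a gene often differed between libraries of the same group. For CNOT6, ENST00000261951 had 874, 4978 and 3961 counts in MOCK against 442, 5607 and 4741 in CYGB, whereas ENST00000618123 had 3961, 0 and 0 counts in MOCK against 5755, 0 and 0 in CYGB. The first replicate of each group thus had its CNOT6 counts on the other transcript, although the gene totals were alike. Of the 150-base windows of these transcripts, 1.51% and 0% were found in no other CNOT6 transcript. For CNOT1, ENST00000569240 led 5 libraries with 11270 to 14087 counts, and in CYGB replicate 3 it had 5417 counts against 13059 for ENST00000317147. For CNOT2, ENST00000229195 had 2651, 3296 and 504 counts in MOCK against 1360, 938 and 1422 in CYGB. For CNOT8, the 3 leading transcripts changed places, and the unique share of their windows was 0.664 to 0.815%. CNOT7 and CNOT11 each had 1 leading transcript in all 6 libraries.

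To set CNOT9 beside these, the isoform distance of a pair of libraries was taken as the share of a gene's counts that would have to lie on other transcripts for the pair to match. For CNOT9 the distance averaged 12.9% over the 6 pairs of libraries within a group (at most 32.4%) and 61.4% over the 9 pairs between groups (at least 42.3%). Every pair between groups was farther apart than every pair within a group, which was seen in 0.83% of the 9281 genes with a distance. CNOT9 was chosen on the same libraries, so this is a description. None of the other 8 subunits with a distance showed this. For CNOT6 the mean was 58.2% within and 40.1% between groups, for CNOT8 33.6% and 38.0%, for CNOT2 31.7% and 33.6%, and for CNOT1 23.4% and 22.1%. CNOT3 had 19.0% and 24.4%, CNOT10 17.0% and 14.5%, CNOT7 10.1% and 14.1%, and CNOT11 0.215% and 0.205%. Over all genes the medians were 12.5% within and 12.7% between groups, so CNOT9 resembled the median gene within groups and differed from it between them. The leading transcript was not the same in all 6 libraries for 7 of the 9 subunits, CNOT9 included, and for 36.5% of all genes.

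**Figure D5:**
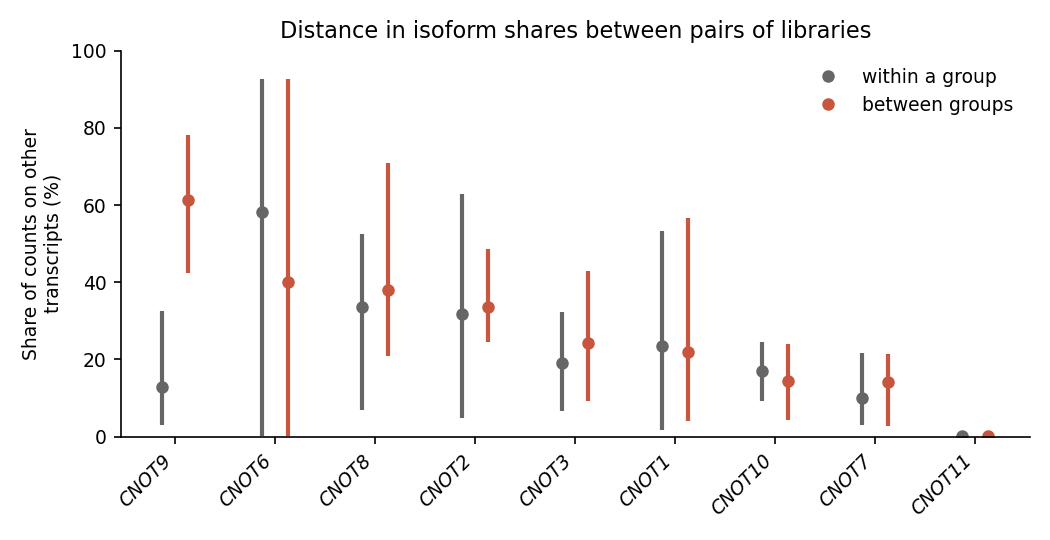
Isoform distance in percent of counts for the 9 subunits with at least 10 CPM on average, with points at the mean and lines from the lowest to the highest pair of libraries, grey within and red between groups. The lines are apart for CNOT9 (at most 32.4% against at least 42.3%) and overlap for the other subunits.

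The genes whose pattern over the 6 libraries was most like that of CNOT9 were found by Pearson's r of log2(CPM + 1) among 9946 genes with at least 10 CPM on average, as a description. The highest r was for MTUS1 (0.996), Z83844.3 (0.994) and CYGB itself (0.990). The lowest was for KRR1, a ribosome assembly factor (-0.992), and DICER1, the nuclease that makes mature microRNAs (-0.991). DICER1 stood at 52.0, 56.2 and 54.9 CPM in MOCK against 41.3, 42.6 and 40.3 in CYGB. All 6 points share the split between the groups, by which CNOT9 was chosen. Among the other subunits r ran from -0.73 for CNOT2 to 0.62 for CNOT6 and 0.60 for CNOT8, and it was -0.0043 for CNOT1.

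Genes that work with CCR4-NOT were described in 5 lists of 104 genes, of which 100 were tested. Past the threshold of p and ratio was 1 gene, where 0.565% of all genes passed. After adjustment 0 reached a p under 0.05 by edgeR's quasi-likelihood test, where 0.055% of all genes did. An unadjusted p under 0.05 was reached by 5 with edgeR, against 4.54% of all genes. With DESeq2, which gave a p for 99, 1 had an adjusted p under 0.05, against 108 of the 19987 genes. Of 25 proteins that recruit the complex, 1 was higher and 0 lower past the threshold, and the median log2 fold change was -0.053. Over all genes, 0.28% were higher and 0.285% lower past it. The gene was TNRC6C, a microRNA partner that CNOT9 and CNOT1 bind, with 264, 109 and 107 counts in MOCK against 1091, 659 and 470 in CYGB. All CYGB libraries were above all MOCK libraries. TNRC6C had a log2 fold change of 2.16 (SE 0.53, unadjusted p = 0.0065), with an adjusted p of 0.963 by edgeR's quasi-likelihood test and 0.0131 by DESeq2. The gene stayed past the threshold of p and ratio without MOCK replicate 1 or CYGB replicate 3 and fell short of it without any of the other 4 libraries, and its log2 fold change ran from 1.75 to 2.80. In limma on log2(TPM + 0.5) the difference for TNRC6C was 0.57 (adjusted p = 0.913). There 0 genes of the 5 lists passed the threshold of p and ratio, where 80 of the 19968 genes tested did. After adjustment 0 of them reached a p under 0.05 in limma, against 13 of the 19968.

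In the other 4 lists 0 genes passed either threshold, and the 2 with the smallest unadjusted p are named for each. Among 11 other deadenylases and poly(A) proteins the median log2 fold change was 0.087, with 0.17 for PDE12, the deadenylase of mitochondria, and -0.32 for PAN2, the catalytic subunit of PAN2-PAN3. Among 21 genes of decapping and 5′ to 3′ decay the median was -0.035. GIGYF2, a translational repressor, had a log2 fold change of -0.22 (unadjusted p = 0.0414, adjusted p = 0.963). PATL1, which links deadenylation to decapping, had 888, 831 and 3712 counts in MOCK against 4345, 4563 and 5011 in CYGB. MOCK replicate 3 was near the CYGB level, as for CNOT8. The adjusted p of PATL1 was 0.963 with all libraries and 0.0215 without MOCK replicate 3 (log2 fold changes 1.35 and 2.39).

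Among 16 genes of the exosome and its SKI cofactor the median log2 fold change was -0.0050, with 0.46 for EXOSC3 (unadjusted p = 0.0204) and 0.22 for EXOSC4, both exosome subunits. Among 27 tested mRNAs known for AU-rich elements, a class that CCR4-NOT deadenylates, the median was 0.025, and IL6 and TNF were too low to be tested. KLF10 had a log2 fold change of 0.22 (unadjusted p = 0.0256) and ATF3, a stress-induced transcription factor, of 1.17 (unadjusted p = 0.0426). ATF3 had 1146, 1028 and 859 counts in MOCK against 2907, 913 and 3182 in CYGB, so CYGB replicate 2 was at the MOCK level. All 4 of these genes had an adjusted p of 0.963 with the quasi-likelihood test of edgeR, adjusted by Benjamini-Hochberg.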

How the data were processed

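The deposited table holds unnormalized counts of paired-end 150-base reads for each transcript, made by the authors. The processing notes name HISAT2, HISAT, DESeq2 and hg19 without a role, whereas 99.5% of the transcripts with a gene have the positions of GENCODE 29 (GRCh38), which were used here. The counting tool and its handling of isoforms are not given in the sources used here. The 10 genes, the gene lists and the tests were chosen with earlier results of these data known.

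Counts were tested per transcript and, summed, per gene with edgeR 4.0.16 in R 4.3.3 (filterByExpr with a minimum count of 10, TMM, quasi-likelihood test, Benjamini-Hochberg adjustment over all features tested, no replicate block). Calls needed an unadjusted p of 0.01 or lower and a ratio of 2 or more, or 0.5 or less, and adjusted p under 0.05 was read beside it. CPM used the summed counts of the genes that passed the expression filter, scaled by TMM. The overlap of groups over all transcripts used the totals of counts with a gene. TPM used full GENCODE 29 lengths, and limma 3.58.1 tested log2(TPM + 0.5), which was added with the data in view. The scripts were tested on simulated data. Lists name genes past a threshold or else the 2 with the smallest p, and CNOT9 transcripts are named from 10 counts in a library. Same-numbered replicates deviated together only weakly (r = 0.0322, 0.0067 and 0.0324, against -0.0369 to 0.0055 for different numbers). The numbers were not taken as pairs. Alternatives were DESeq2 1.42.0, its size factors, other filters, a replicate block and leaving out each library. The 4 genes with the highest and the 2 with the lowest r to CNOT9 were to be named, of which 1 is not reported here.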

Additional observations from a re-analysis of the deposited data

How the results depend on the processing

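Of the alternatives, those that take transcript length or single transcripts into account moved CNOT9 most. Its log2 fold change of 1.23 became 2.86 for ENST00000273064 alone, 0.25 in TPM, 0.23 in TPM with 200 bases taken off each length, and -1.80 for all transcripts but ENST00000273064. The last 3 were added after the data were seen. The other subunits had 0 calls per gene under every alternative run, with no p for CNOT6L from DESeq2. Of the changes of sign, CNOT7 (-0.0021) became 0.00012 with DESeq2 size factors, 7.05e-05 with DESeq2, and 0.29 in TPM, and without single libraries it ran from -0.084 to 0.14 (0.029 without MOCK replicate 3, 0.14 without CYGB replicate 3). Without single libraries CNOT1 (0.0072) ran from -0.15 without CYGB replicate 3 to 0.10 and was -0.021 without MOCK replicate 2. CNOT3 (-0.083) ran from -0.26 to 0.088 without CYGB replicate 2, CNOT6L (3.81) from -0.093 without CYGB replicate 3 to 4.59, and CNOT10 (0.045) from -0.0073 without CYGB replicate 2 to 0.098. In TPM CNOT10 was -0.0037. The CNOT7 share of its pair, -2.43 percentage points, was -9.70 in raw counts (exact permutation p = 0.3) and ran from -6.07 to -0.393 without single libraries. The CNOT6 share ran from -11.5 to 1.33, the latter without CYGB replicate 3.

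Over all genes, 113 calls at the threshold of p and ratio became 263 with DESeq2, 62 with genes of 50 mean counts or more, and 124 to 177 without single libraries, the highest without MOCK replicate 3. The 11 genes with an adjusted p under 0.05 became 108 with DESeq2 and 6 to 14 without single libraries, namely 6 without MOCK replicate 1 and 7 when CYGB replicate 3 was left out. Over all transcripts, the 681 calls became 1506 with DESeq2, 319 with transcripts of 50 mean counts or more, and 961 to 1209 without single libraries, the highest without MOCK replicate 3. The 10 transcripts with an adjusted p under 0.05 became 748 with DESeq2, 5 without an expression filter and 0 to 7 without single libraries (0 without CYGB replicate 3). Transcripts of the other subunits past the threshold, 0 of 69 in the report, were 1 with DESeq2 (ENST00000485136 of CNOT10), where 1506 of 66609 passed. They were 0 to 3 without single libraries. Without MOCK replicate 3 they were 3 of 77 tested, of CNOT2, where 1209 of 72976 transcripts passed. The list genes past the threshold, 1 in the report, were 0 in TPM and 0 to 2 without single libraries. Those with an adjusted p under 0.05, 0 in the report, were 1 with DESeq2 and 0 to 1 without single libraries. The cause of these moves was not tested.

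With the replicate number as a block, genes with an adjusted p under 0.05 fell from 11 to 0 (764 at an unadjusted p under 0.05), transcripts past the threshold from 681 to 291, and transcripts with an adjusted p under 0.05 from 10 to 0 (1814 unadjusted). CNOT9 kept a log2 fold change of 1.23 and CNOT1 changed sign to -0.0079. Libraries with the same number correlated at 0.0067 to 0.0324 in their deviations from the group means. Libraries with different numbers correlated at -0.0369 to 0.0055. These correlations are small and cannot settle whether same-numbered libraries share a factor, which was not tested. The common biological coefficient of variation over the 6 libraries was 36.6% per gene and 78.9% per transcript.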

Other observations

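CNOT4, a ubiquitin ligase that associates with the complex in yeast and is not stably bound in human cells, had 1694, 1969 and 1963 counts in MOCK against 1703, 2003 and 1659 in CYGB (log2 fold change -0.088, adjusted p = 0.968 with the quasi-likelihood test of edgeR, adjusted by Benjamini-Hochberg). The pseudogene CNOT6LP1 had 14 to 51 counts per library, CNOT7P1 had 0 to 4 and CNOT7P2 had 0 in all 6. CNOT6LP1 exceeded its low parent gene CNOT6L in MOCK replicate 3 (29 against 13 counts) and in CYGB replicate 2 (51 against 48 counts), and how reads shared by both were assigned is not given in the sources used here. The antisense gene CNOT10-AS1 had 3, 0 and 0 counts in MOCK against 9, 11 and 3 in CYGB and was below the expression filter.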
